A study of Homo sapiens with 16 samples.

Results

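The genes described here are 3 tensins (TNS1, TNS3 and TNS4), 4 integrin subunits of epithelial cells (ITGA2, ITGA3, ITGB4 and ITGB6) and 2 chains of laminin-332 (LAMA3 and LAMB3). They were taken by their names on the array, with all their probes that are not controls, and account for 16 of 41000 probes and 9 of 30982 distinct names. The 9 genes were chosen by their log2 values over the 4 conditions, with the response of TNS4 as the starting point. Differences between conditions in these genes are therefore given as descriptions, with standard errors (SE) and without tests.

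Gene expression was measured in cultures of Caco-2, an epithelial line from a human colon carcinoma, on 16 one-colour Agilent arrays. Every flask held undifferentiated cells of this 1 line, kept for 6 h in MEM with 1% fetal calf serum, and every flask was detached with trypsin-EDTA before its RNA was extracted. The control flasks (MED-CTL) received nothing else. PT-G was gliadin, the wheat protein fraction that triggers celiac disease, digested with pepsin and trypsin. PT was the blank digest, prepared with the enzymes and no substrate, and in both preparations the enzymes had been inactivated by heat. The amounts of PT and PT-G are not given in the sources used here. The p31-43 flasks received the synthetic gliadin peptide of that name at 150 µg/ml. Each condition had 4 arrays from 4 independent experiments, whose cells were 1 to 2 passages apart, and 1 array of every condition carried each of 4 dates. The arrays of a date are called a date set here, numbered 1 to 4 in order of time, and sets 1 and 2 are the earlier dates. Levels are log2 intensities normalized with the quantiles method, given as means ± SD over 4 arrays, and a difference of 1 on this scale is a doubling.

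Tensins are cytoplasmic adaptors that bind the tails of beta integrins and join them to the actin cytoskeleton. TNS4, also called CTEN, is a short tensin without the actin-binding part of the others, and its expression is known to be driven by growth factor signals. Integrins are the receptors by which epithelial cells hold the matrix, and laminin-332, which contains the chains encoded by LAMA3 and LAMB3, is the basement membrane ligand bound by the integrins that contain ITGA3 or ITGB4.

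Median intensities of the arrays lay between 153 and 410 over a median local background of 48 to 65, and 27660 to 33947 spots were well above background. All 8 epithelial markers examined, among them CDH1, EPCAM, VIL1 and KRT20, were well above background on all 16 arrays. Of 6 fibroblast markers 4 were, of 6 leukocyte markers 3 (with PTPRC on none) and of 4 endothelial markers 2 (with CDH5 on none). The summed intensity of each marker list overlapped between the conditions, with 859804 to 1081080 for the epithelial, 1889 to 3350 for the fibroblast, 1199 to 1698 for the leukocyte and 464 to 756 for the endothelial markers over all arrays. Only whole cultures were measured, so fewer cells with a transcript and less transcript per cell cannot be told apart.

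Of the 9 genes, 6 had a promoter in the RefSeq table used (GRCh38.p14), and these were searched on both strands for the AP-1 letters TGANTCA. AP-1 is known to act through such letters in the LAMA3 promoter of keratinocytes. Shown are ITGA2, an integrin subunit with a higher level in both digests, and both laminin genes, which hold the motif. The lines give the 150 bases before the start site of ITGA2 (chr5:52989202-52989351, plus strand), LAMA3 (chr18:23872870-23873019, plus strand) and LAMB3 (chr1:209651375-209651524, minus strand), each written 5′ to 3′ along the gene with the motif in capitals.
ITGA2: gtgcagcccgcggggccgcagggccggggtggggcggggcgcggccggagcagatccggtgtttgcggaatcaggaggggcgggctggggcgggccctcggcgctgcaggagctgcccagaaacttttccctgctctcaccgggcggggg
LAMA3: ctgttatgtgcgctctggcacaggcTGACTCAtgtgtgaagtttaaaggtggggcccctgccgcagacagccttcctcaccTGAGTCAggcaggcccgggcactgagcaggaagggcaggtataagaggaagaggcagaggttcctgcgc
LAMB3: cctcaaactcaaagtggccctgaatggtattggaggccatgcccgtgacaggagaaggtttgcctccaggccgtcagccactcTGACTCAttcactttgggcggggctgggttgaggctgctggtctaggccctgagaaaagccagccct
LAMA3 held 2 matches and LAMB3 1, and the other 4 promoters, those of TNS1, TNS3, ITGA2 and ITGB6, held none in this window. Of 35116 RefSeq promoters, 4.17% held at least 1 match in the same 150 bases and 0.174% at least 2. The letters of motifs named EGR, CArG box, CRE and TATA were searched for as well, over the 300 bases of each promoter. Only 1 of the 6 genes held any of these, ITGB6 with a CArG box, as did 1.29% of all promoters. These letters are a description of the sequence and not a measured binding site.

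TNS4 was the member that stood apart between conditions. Its single probe (A_23_P207850, chromosome 17) was well above background on all 16 arrays. In MED-CTL its level was 9.24, 8.09, 9.24 and 8.58 in replicates 1 to 4, and with p31-43 it was 7.98, 9.42, 8.62 and 8.46. With PT it was 10.05, 11.05, 10.40 and 10.14, and with PT-G 10.08, 11.24, 11.08 and 10.81. Every digest array lay above every MED-CTL and every p31-43 array, whereas the ranges of PT and PT-G overlapped, as did those of p31-43 and MED-CTL. The means, from low to high, were 8.62 ± 0.60 for p31-43, 8.79 ± 0.56 for medium alone, 10.41 ± 0.45 for the blank digest and 10.80 ± 0.51 for digested gliadin (n = 4 each). The first and second of these, and the other two, were closer to each other than the SD of their arrays.

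**Figure D1:**
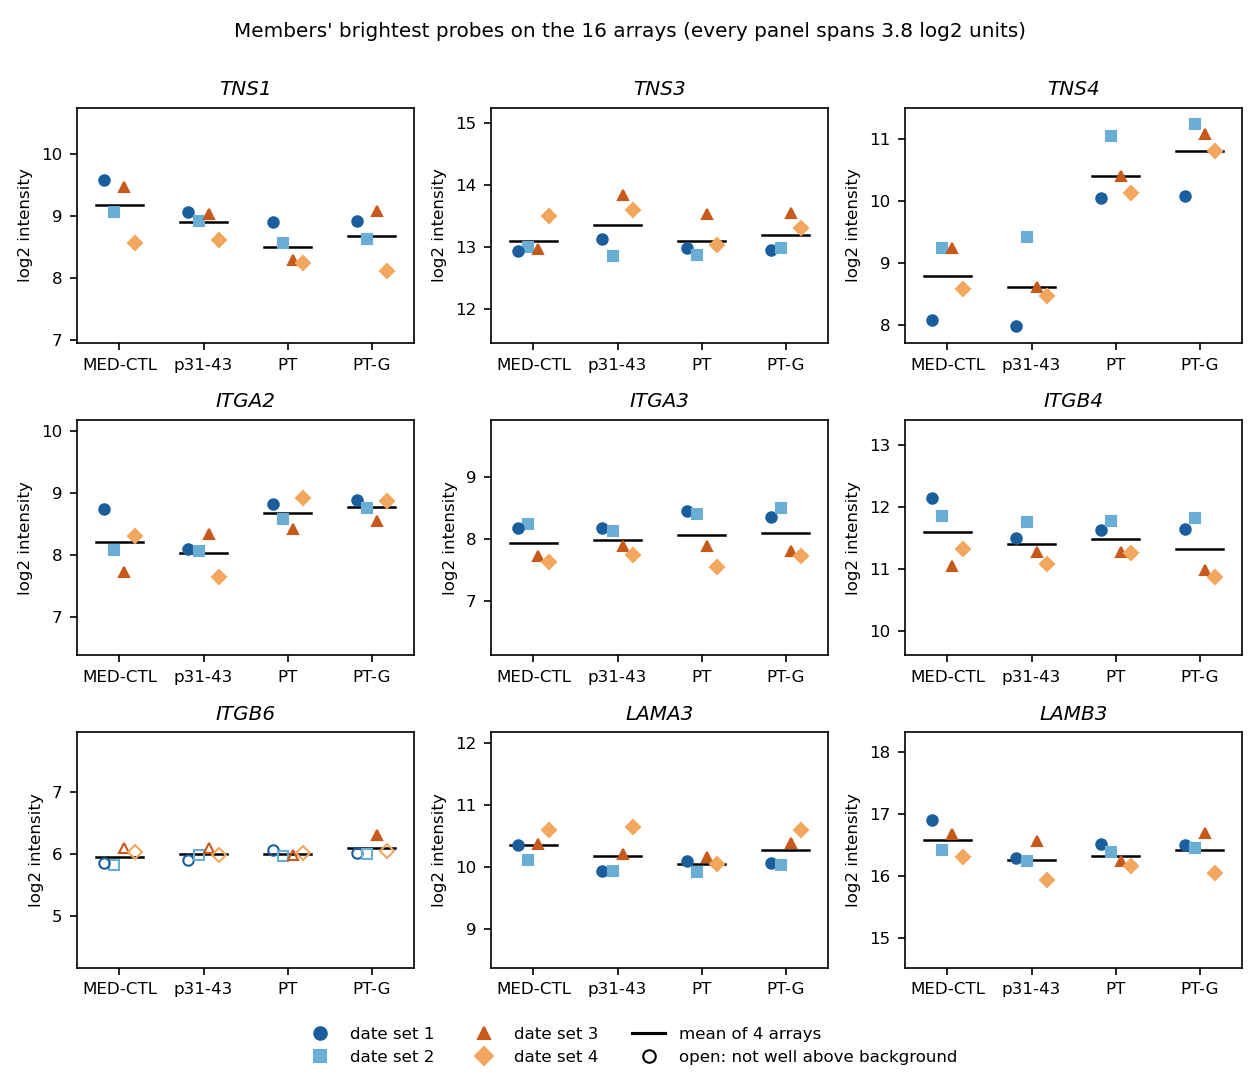
Log2 intensity of each gene's brightest probe (vertical axis, of equal span in every panel) on the 4 arrays of each condition (horizontal axis), with the colour and shape of a point giving its date set, a line the mean of 4 arrays and an open point an array where the probe was not well above background. The 8 PT and PT-G points of TNS4 lie above its 8 MED-CTL and p31-43 points, and no other gene shows such a separation.

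TNS4 was 2.02 higher with PT-G than in MED-CTL on the log2 scale (SE 0.35), which is 4.05-fold, and 1.62 higher with PT (SE 0.35), which is 3.08-fold. The p31-43 level differed from MED-CTL by −0.17 (SE 0.35). PT-G exceeded PT by 0.39 (SE 0.35). The SEs of differences between conditions are from the model without the dates, so they include the spread between dates. Each comparison with medium uses the same 4 MED-CTL arrays. In the model over all probes 1.91% were higher with PT-G and 1.8% with PT at a nominal p under 0.01. No overlap between the groups, with the treated arrays higher, was found for 2.01% of probes with PT-G and 2.36% with PT. TNS4 was the only one of the 9 genes in any of these classes, and since it was chosen for this response, nothing is read from that.

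The 4 dates differed in the resting level of TNS4, and much of the spread within a condition followed them. Date set 1 held the lowest array of every condition, at 8.09, 7.98, 10.05 and 10.08. Taken within a date set, the difference between PT-G and MED-CTL was 2.00, 2.00, 1.84 and 2.23 in sets 1 to 4, a mean of 2.02 with an SD of 0.16. The MED-CTL level thus ranged over more than 1 log2 unit while the PT-G difference stayed between 3.58-fold and 4.69-fold. For PT the differences within the date sets were 1.97, 1.82, 1.16 and 1.56 (SD 0.35), and for p31-43 they were −0.11, 0.19, −0.63 and −0.12. PT-G exceeded PT by 0.03 and 0.18 in the earlier sets and by 0.68 and 0.67 in the later ones, a mean of 0.39 with an SD of 0.34. The PT array of date set 3 and the p31-43 array of date set 4 lay on a different slide from the other arrays of their sets. Their part in the values of these sets was not tested.

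**Figure D2:**
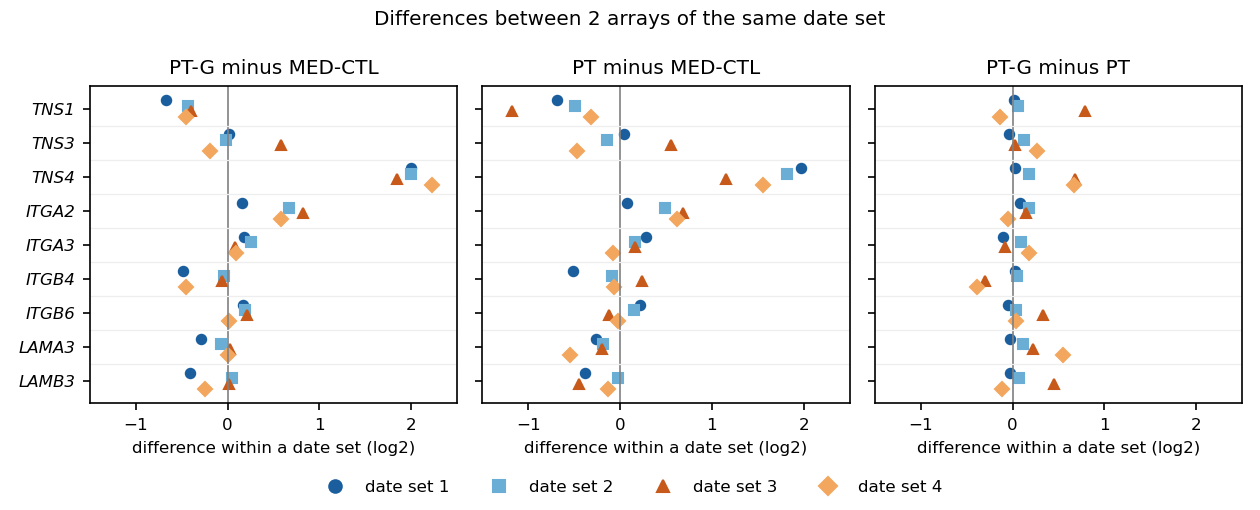
Differences in log2 intensity (horizontal axis) between 2 arrays of the same date set, for each gene's brightest probe (vertical axis), with 1 point per date set. All 4 TNS4 points lie at 1.84 or more for PT-G minus MED-CTL and at 1.16 or more for PT minus MED-CTL, and ITGB6 was not well above background on 15 of the 16 arrays.

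The response of TNS4 was also compared between the earlier and the later dates, a contrast that was not used to choose it. The mean of PT-G and PT exceeded MED-CTL by 1.95 (SE 0.49) on the earlier and 1.70 (SE 0.49) on the later dates, and the change in the response was −0.25 (SE 0.70, limma, adjusted p = 1.00). With 2 arrays for each condition and date pair, a change of the size of this SE was not detectable. The level itself, averaged over conditions, differed by 0.02 between later and earlier dates (SE 0.28, limma, adjusted p = 0.975).

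The pattern of TNS4 over the 16 arrays was shared most closely by genes of other families. Among 13063 named genes well above background on every array, those with the highest Pearson r included C20orf12 (0.973), AHR (0.955), FAM105A (0.950), NR4A1 (0.950), SH3PXD2A (0.949), TGFBR2 (0.947) and PTGER2 (0.946). AHR is a ligand-activated transcription factor, NR4A1 an orphan nuclear receptor, TGFBR2 a TGF-beta receptor, PTGER2 a prostaglandin E2 receptor and SH3PXD2A a scaffold of podosomes. With the mean of each date set subtracted, r was between 0.956 and 0.983 for these genes. Among the members r was 0.55 for ITGA2, −0.50 for TNS1 and between −0.20 and 0.43 for the others. Without the date means it became 0.77 for ITGA2, −0.66 for TNS1 and 0.54 for ITGA3. For the rest it then lay between −0.38 (ITGB4) and 0.57 (the dim ITGB6). The genes named above were picked as the highest of 13063, so a lower r of the members was fixed by that choice. These correlations are over 16 arrays that share conditions and dates, and they describe the arrays only.

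TNS3, the tensin of 2 probes 2.24 kb apart on chromosome 7, was level across the conditions. The brighter probe (A_24_P346431) averaged 13.10 ± 0.26 on the medium arrays, and 13.35 ± 0.45, 13.09 ± 0.29 and 13.19 ± 0.28 on those of p31-43, PT and PT-G. Its difference from MED-CTL was 0.09 with PT-G, −0.002 with PT and 0.25 with p31-43 (SE 0.22 each). The other probe (A_23_P215642) gave −0.14, −0.25 and 0.30 with an SE of 0.43. None of these exceeded its error by a factor of 2.

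TNS1 was lower in both digests. This long tensin crosslinks actin at fibrillar adhesions. Its brightest probe (A_23_P351724, chromosome 2) had 9.06, 9.58, 9.47 and 8.57 in MED-CTL replicates 1 to 4, 8.90, 8.57, 8.29 and 8.25 with PT, and 8.92, 8.62, 9.08 and 8.11 with PT-G. From high to low, the means were MED-CTL at 9.17 ± 0.46, p31-43 at 8.91 ± 0.20, PT-G at 8.68 ± 0.43 and PT at 8.50 ± 0.30, and the ranges of the conditions overlapped. The difference from MED-CTL was −0.49 with PT-G and −0.67 with PT (SE 0.24), or 0.712-fold and 0.629-fold, and −0.26 with p31-43. It was negative in all 4 date sets for both digests, between −0.67 and −0.39 for PT-G and between −1.18 and −0.32 for PT.

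The 4 probes of TNS1 did not move alike. The 2 probes 1.15 and 1.17 kb from the brightest one gave −0.57 and −0.60 with PT-G and −0.68 and −0.73 with PT (SE 0.31 to 0.32). Both were lower in all 4 date sets in either digest. These 2 probes overlap each other on the map of the array and are not independent measurements. The remaining probe, 79.5 kb away and split over 2683 bases, gave −0.12 with PT-G and −0.01 with PT (SE 0.15). All 4 were well above background on all 16 arrays and are listed under the same transcript record.

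**Figure D3:**
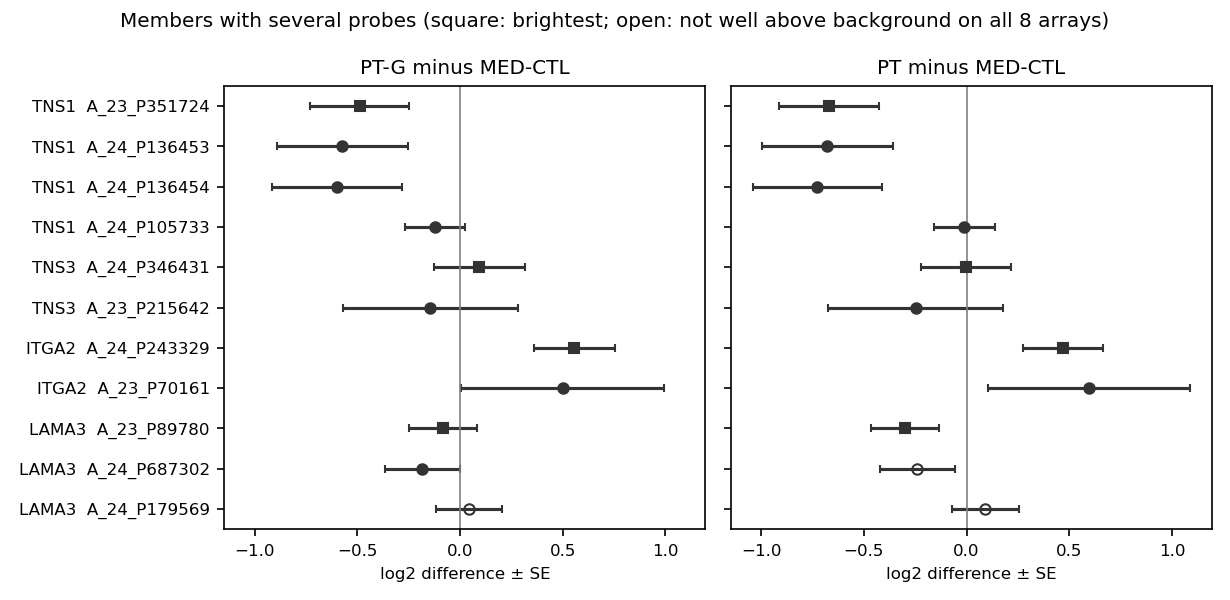
Difference of PT-G and of PT from MED-CTL on the log2 scale (horizontal axis, with SE) for every probe of the 4 genes with several probes, with a square for the brightest probe and an open symbol where the probe was not well above background on all 8 arrays compared. In these PT-G and PT panels the 3 neighbouring TNS1 probes lie between −0.73 and −0.49, the distant one at −0.12 and −0.01, and both ITGA2 probes lie above 0.

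ITGA2, the alpha subunit of a collagen receptor, had a higher mean in both digests than in MED-CTL, with the largest differences among the 4 integrin members. Its brightest probe (A_24_P243329, chromosome 5) had 8.09, 8.74, 7.73 and 8.30 in MED-CTL replicates 1 to 4 and 8.10, 8.06, 8.34 and 7.64 with p31-43. It had 8.82, 8.57, 8.42 and 8.92 with PT and 8.90, 8.75, 8.56 and 8.88 with PT-G. The ranges overlapped through MED-CTL replicate 2, the array of date set 1, which was higher than 2 of the PT arrays and 1 of the PT-G arrays. The difference from MED-CTL was 0.56 with PT-G (SE 0.20, 1.47-fold), 0.47 with PT (SE 0.20, 1.38-fold) and −0.18 with p31-43 (SE 0.20). It was positive in all 4 date sets for both digests, from 0.16 to 0.83 with PT-G and from 0.08 to 0.68 with PT, and lowest in set 1. The other probe (A_23_P70161, 1.83 kb away) gave 0.50 with PT-G and 0.60 with PT (SE 0.49), also positive in every date set.

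ITGA3 and ITGB4, the subunits of the laminin-332 receptors, differed little between conditions. ITGA3 (A_23_P55251, chromosome 17) averaged 7.94 ± 0.31 on the medium arrays, and 7.98 ± 0.20, 8.07 ± 0.44 and 8.09 ± 0.39 on those of p31-43, PT and PT-G. ITGB4 (A_23_P66355, chromosome 17), the subunit that anchors hemidesmosomes, was at 11.60 ± 0.50, 11.41 ± 0.29, 11.49 ± 0.25 and 11.34 ± 0.47 in the same order. The differences from MED-CTL were 0.15, 0.13 and 0.04 for ITGA3 and −0.26, −0.11 and −0.19 for ITGB4 with PT-G, PT and p31-43 (SE 0.23 and 0.26). ITGB6, part of the fibronectin receptor that activates TGF-beta, was not well above background on 15 of 16 arrays. Its probe read 5.81 to 6.31, the highest being PT-G replicate 3, the only array well above background, so that no fold is given.

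By their brightest probes, both laminin chains had lower means with each treatment than in MED-CTL, with differences between −0.32 and −0.08 on the log2 scale. LAMB3 (A_23_P86012, chromosome 1) had 16.42, 16.91, 16.69 and 16.31 in MED-CTL replicates 1 to 4, and a mean of 16.58 ± 0.27. It averaged 16.27 ± 0.26 for the peptide, 16.34 ± 0.16 for the blank digest and 16.43 ± 0.27 for digested gliadin. The differences were −0.32, −0.25 and −0.15 (SE 0.17), negative in all 4 date sets for p31-43 and PT and in 2 for PT-G. LAMA3, by its brightest probe (A_23_P89780, chromosome 18), had means of 10.36 ± 0.20, 10.18 ± 0.33, 10.06 ± 0.10 and 10.28 ± 0.27 for medium, peptide, blank digest and digested gliadin. It was lower by 0.30 with PT (log2 difference −0.30, SE 0.17, negative in all 4 date sets) and differed by −0.18 with p31-43 and −0.08 with PT-G. The 3 LAMA3 probes span 81.6 kb on the map of the array, and the other 2 were well above background on 15 and 12 of 16 arrays and differed from MED-CTL by −0.24 to 0.19 in the 3 comparisons. The brightest probe and A_24_P687302 are listed under another transcript record than A_24_P179569. The LAMA3 promoter shown above was taken by gene name and was not assigned to either record.

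**Figure D4:**
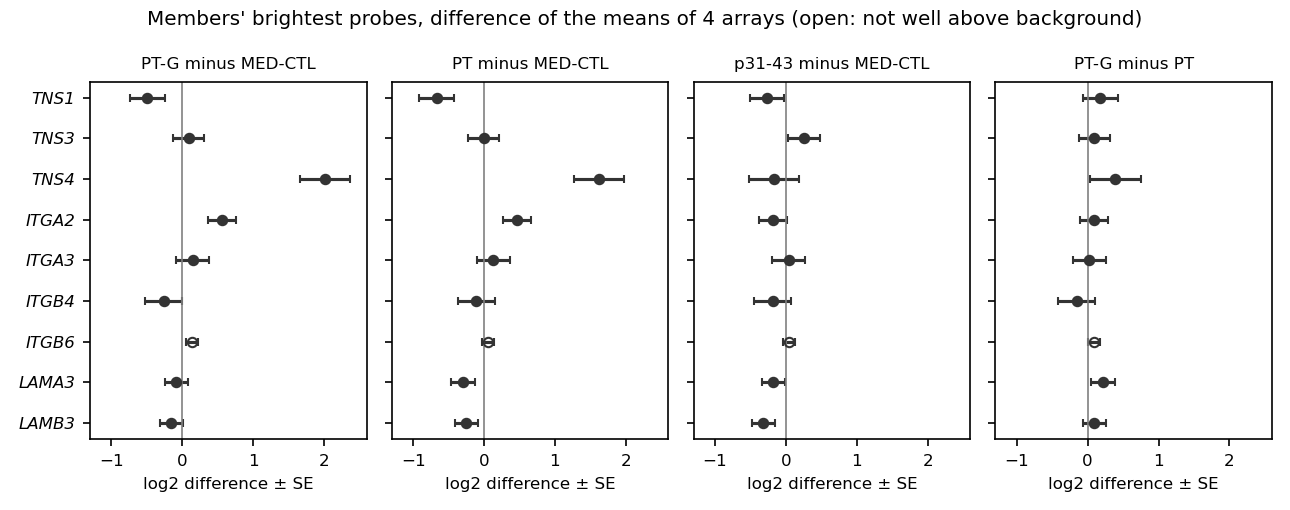
Log2 difference between condition means (horizontal axis, with SE, n = 4 arrays each) for the brightest probe of the 9 genes (vertical axis) in the 4 comparisons, with ITGB6 open because it was not well above background. TNS4 lies at 2.02 for PT-G and 1.62 for PT minus MED-CTL, ITGA2 at 0.56 and 0.47 and TNS1 at −0.49 and −0.67, and the remaining genes lie between −0.32 and 0.25.

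Over the 9 genes, the median absolute difference was 0.152 with PT-G, 0.248 with PT, 0.181 with p31-43 and 0.0964 between PT-G and PT, against 0.0996, 0.116, 0.0810 and 0.0762 over all probes tested. The 9 genes were chosen with their values over the conditions known, and all probes include dim ones. Nothing is therefore read from these medians or from the counts that follow in this paragraph. With PT-G 4 of the 9 (TNS4, ITGA2, ITGA3 and the dim ITGB6) were higher and 2 (TNS1 and ITGB4) lower in every date set, where 13.8% and 14.9% of all probes were. With PT 2 (TNS4 and ITGA2) were higher and 3 (TNS1, LAMA3 and LAMB3) lower, where 11.1% and 13.5% of all probes were. With p31-43 none was higher and 1, LAMB3, was lower, where 8.55% and 8.46% of all probes were. Between PT-G and PT, 8 of the 9 had a positive difference, where 52.9% of all probes did. TNS4 was the only one positive in all 4 date sets, as were 4.53% of all probes. Beside TNS4, no gene of the set separated a treated group from MED-CTL without overlap, as 1.39% of all probes did with p31-43.

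The members were then compared between the earlier and later dates, a contrast independent of how they were chosen. ITGA3 was 8.13 to 8.49 on the 8 arrays of the earlier dates and 7.54 to 7.88 on the 8 of the later dates. ITGB4 was 11.51 to 12.14 on the earlier and 10.88 to 11.34 on the later dates. In neither gene did the ranges overlap. The later level minus the earlier was −0.56 (SE 0.09, limma, adjusted p = 0.00239) for ITGA3 and −0.62 (SE 0.13, limma, adjusted p = 0.00776) for ITGB4, or 0.677-fold and 0.649-fold. These were 2 of 9 genes, and 11.2% of all probes had an adjusted p under 0.05 in this comparison. TNS3 at 0.45 (SE 0.16, limma, adjusted p = 0.0924) and LAMA3 at 0.32 (SE 0.12, limma, adjusted p = 0.0959) did not pass, nor did LAMB3 at −0.13 (SE 0.14, limma, adjusted p = 0.663).

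**Figure D5:**
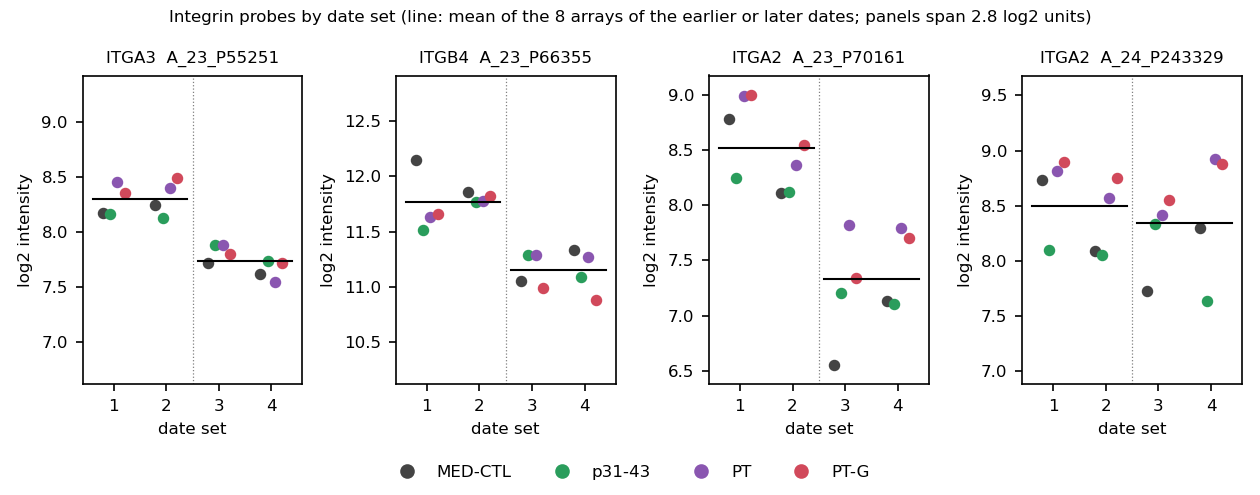
Log2 intensity of 4 integrin probes (vertical axis, of equal span in each panel) by date set (horizontal axis), with a point per array coloured by condition and a line for the mean of the 8 arrays of the earlier or later dates. ITGA3, ITGB4 and ITGA2 by its probe A_23_P70161 lie lower on date sets 3 and 4 without overlap, and the other ITGA2 probe does not.

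Probes of 1 gene differed in this comparison. ITGA2 by A_23_P70161 was at 8.52 ± 0.37 on the earlier and 7.33 ± 0.43 on the later dates (SD, n = 8), a change of −1.19 (SE 0.20, limma, adjusted p = 0.00244) without overlap. By its brightest probe, A_24_P243329, it differed by −0.15 (SE 0.20, limma, adjusted p = 0.728). The other TNS3 probe differed by −0.75 (SE 0.32, limma, adjusted p = 0.160), against 0.45 for the brighter one. In date pairs 2 dates stand on each side, the scan days differ with them, and passage, culture and scan cannot be told apart. In none of the 9 genes did the response to the digests change between the date pairs at an adjusted p under 0.05 in limma. Of all probes 0.1% reached this. None of the 9 had a nominal p under 0.05 in limma, for which the share of all probes was not counted.

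Other genes of matrix adhesion were examined through lists of 81 genes, of which 80 were tested, each by its brightest probe, and 64 were well above background on all 16 arrays. With PT-G 1 of 80 had a nominal p under 0.01, where 3.44% of all probes did. This was BCAR1, the docking protein p130Cas of focal adhesions, which was 0.46 higher (SE 0.14, limma, adjusted p = 0.216). With PT 3 of 80 did, where 3.64% of all probes did. They were FERMT3 (kindlin-3, named URP2 on the array) at 0.61 (SE 0.21, limma, adjusted p = 0.273), TNC (the matrix protein tenascin-C) at −0.56 (SE 0.16, limma, adjusted p = 0.174) and KRT14 (a basal keratin) at −0.35 (SE 0.10, limma, adjusted p = 0.190). With p31-43 1 of 80 did, where 0.388% of all probes did. This was KRT14 at −0.51 (SE 0.10, limma, adjusted p = 1.00), while the other KRT14 probe, well above background on 8 of 16 arrays, gave 0.14 with PT and 0.09 with p31-43. Between PT-G and PT none did by limma, where 0.0903% of all probes did. Without a block for the experiments, none of the 80 had an adjusted p under 0.05 in limma, where 0.944% of all probes did with PT-G, 0.82% with PT, 0% with p31-43 and 0% between PT-G and PT. At a nominal p under 0.05 there were 7 with PT-G, 8 with PT, 4 with p31-43 and 0 between PT-G and PT, where 7.98%, 8.98%, 2.15% and 0.781% of all probes did.

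By group, counts of genes past a nominal p under 0.01 are set beside the shares of all probes. These shares were 3.44% with PT-G, 3.64% with PT, 0.388% with p31-43 and 0.0903% between PT-G and PT. With lists this short, nothing is read from the counts. None of 22 other integrin subunits and none of 10 other laminin chains passed in any of the 4 comparisons in limma. Of 29 focal adhesion proteins 1 passed with PT-G (BCAR1) and 1 with PT (FERMT3), of 6 hemidesmosome partners 1 with PT and with p31-43 (KRT14), and of 9 other matrix ligands 1 with PT (TNC). The median log2 difference over the 80 genes was 0.02 with PT-G and −0.01 with PT, against −0.006 and −0.01 over all probes, and the focal adhesion proteins had medians of 0.06 and 0.03.

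ITGB1, the beta subunit that pairs with ITGA2 and ITGA3, differed by −0.09 with PT-G, −0.13 with PT and −0.13 with p31-43 (SE 0.17), and ITGA6, which pairs with ITGB4, by 0.15, 0.03 and −0.38 (SE 0.20). TNS2, the remaining tensin (named TENC1 on the array), differed by 0.16, 0.18 and 0.33 and was not well above background on all arrays. EGFR, a growth factor receptor whose signals raise TNS4, differed by −0.12, −0.24 and −0.21 (SE 0.24), MET, another such receptor, by −0.23, −0.30 and −0.17 (SE 0.19), and CBL, a ubiquitin ligase that acts on both, by 0.40, 0.42 and 0.03 (SE 0.22).

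Blocks by replicate number or by date set raised the calls over the whole array as well as in the lists. The replicate number puts MED-CTL replicates 1 and 2 with arrays of another date. With the replicate number as a block, 4 of 80 genes had a nominal p under 0.01 with PT-G and 3 with p31-43, where 7.59% and 1.05% of all probes did. With PT-G these were BCAR1, CBL at 0.40 (limma, adjusted p = 0.115), FERMT3 at 0.53 (limma, adjusted p = 0.0170) and ITGB8, a beta subunit that pairs with ITGAV, at 0.50 (limma, adjusted p = 0.0366). CBL and ITGB8 have other probes on the array, which were not examined here or with the date set as a block. With p31-43 they were KRT14, ITGA6 at −0.38 and TNS2 at 0.33, whose lowest adjusted p in limma was 0.808.

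The date set as a block pairs each array with the MED-CTL array of its own date. It gave 5 of 80 genes with PT-G, 6 with PT and 4 with p31-43 at a nominal p under 0.01, where 9.16%, 10.3% and 1.38% of all probes passed. At an adjusted p under 0.05 it gave 2 with PT-G, 4 with PT and 0 with p31-43 in limma, where 5.75%, 6.56% and 0% of all probes passed. With PT-G these were FERMT3 at 0.53 (limma, adjusted p = 0.00658) and ITGB8 at 0.50 (limma, adjusted p = 0.0157). With PT they were FERMT3 at 0.61 (limma, adjusted p = 0.00306), ITGB8 at 0.43 (limma, adjusted p = 0.0322), TNC at −0.56 (limma, adjusted p = 0.0155) and KRT14 at −0.35 (limma, adjusted p = 0.0491). CBL at 0.42 (limma, adjusted p = 0.0568) and EGFR at −0.24 (limma, adjusted p = 0.0703) passed only the nominal threshold with PT. BCAR1, CBL and TNC did so with PT-G, and ITGA11, ITGA6, KRT14 and TNS2 with p31-43.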

How the data were processed

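Gene expression was measured on 16 one-colour arrays, 4 for each condition. The deposited scanner files hold a median foreground intensity for each spot, made by the authors with Feature Extraction 9.5.3.1, and marks for outlier, saturated and well-above-background spots that the authors deposited with it. The deposited table of log2 values equals the quantile-normalized log2 of these intensities over all 45015 spots, to within 5.00002e-09. Here log2 median intensities of the 43376 spots that are not controls were quantile normalized without background correction, as in the study's methods. Spots marked as outliers were left out (1774, 0.256%) and spots of a probe averaged. Probes with at least 3 unmarked arrays in each condition were tested (40982 of 41000). A gene's brightest probe is the one with the highest mean over all arrays.

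Conditions were compared in 1 model with limma 3.58.1 in R 4.3.3 (with the data.table package, version 1.17.8), with 12 residual and 1.88 prior degrees of freedom. A nominal p under 0.01, the threshold of the methods, and a Benjamini-Hochberg adjusted p under 0.05 over all probes tested were used, both 2-sided. Dates were compared with condition as a term and the date set as a random block (statmod 1.5.0, correlation 0.298). Date sets 1 and 2 were scanned on 1 day and sets 3 and 4 on 2 others, over 5 slides. The scripts were tested on simulated data. Figures were drawn with matplotlib 3.10.9.

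The members and gene lists were chosen with earlier results of these data known. Named were all members with every probe, the direct partners, listed genes past a nominal p under 0.01, and the 8 genes most correlated with TNS4, apart from items that are not reported here. The replicates are independent experiments on 1 cell line. Equal replicate numbers of PT, PT-G and p31-43 carry the same date. MED-CTL replicates 1 and 2 carry the dates of replicates 2 and 1 of the other conditions, and within-date values follow the dates. By number, deviations from the condition means correlated with those of MED-CTL at 0.395 to 0.858 for PT-G and 0.263 to 0.708 for p31-43. For PT this was −0.018 to 0.410, and between PT-G and PT it was 0.037 to 0.695. By date, the correlations with MED-CTL were 0.625 to 0.858 for PT-G, 0.536 to 0.708 for p31-43 and −0.018 to 0.618 for PT. The number of arrays, 4 for each condition, limits the precision. Alternatives were other signals and scalings, a filter on dim probes, marked spots kept, blocks by replicate, date set and slide, only the groups compared, and each array left out. Promoters are from RefSeq (GRCh38.p14), and probe positions are used only as distances because their build is not named in the sources used here.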

Additional observations from a re-analysis of the deposited data

Results flagged for a closer look

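Of 36 groups of 4 arrays examined, 9 genes in 4 conditions, 2 held an array far from the other 3, and chance gives about 1 in 20. TNS3 in MED-CTL replicate 4 was at 13.49, where the nearest of the other MED-CTL arrays was at 13.00. ITGB6 in PT-G replicate 3 was at 6.31, where the nearest of the others was at 6.04, and it was the only array on which this probe was well above background.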

How the results depend on the processing

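Over 26 alternatives TNS4 was 1.78 to 2.26 higher with PT-G and 1.39 to 1.80 higher with PT than in MED-CTL on the log2 scale, ITGA2 0.40 to 0.73 and 0.31 to 0.64 higher. TNS1 differed by −0.69 to −0.30 with PT-G and −0.87 to −0.52 with PT. Over 24 alternatives the date difference was −0.66 to −0.52 for ITGA3 and −0.70 to −0.57 for ITGB4, with an adjusted p under 0.05 in each. Listed genes with a nominal p under 0.01, in the order PT-G, PT and p31-43, were 1, 3 and 1. They became 0, 0 and 2 with the processed signal scaled to its 75th percentile. Blocking on the date set gave 5, 6 and 4, where 9.16%, 10.3% and 1.38% of all probes passed. Blocking on the slide gave 8, 6 and 7. Median scaling, which moved the median of all probes to −0.11 for PT, gave 1 with PT, and fitting only the groups compared gave 0 with PT-G. The replicate block, which puts MED-CTL replicates 1 and 2 with another date, gave 4, 5 and 3. It gave 0 between PT-G and PT. With 1 array left out the counts were 1 to 2 with PT-G, 1 to 4 with PT (1 without MED-CTL replicate 2) and 1 with p31-43. Date pairs without a random block called 4 members in place of 2, and 2 to 3 with 1 array left out (3 without MED-CTL replicate 3). The share of all probes was counted only in the main setting, with the date-set block and, for PT-G and p31-43, with the replicate block. From the other counts nothing is read about the listed genes or the members. The change in the TNS4 response between date pairs, −0.25, lay between −0.82 and 0.33 with 1 array left out. It was 0.33 without MED-CTL replicate 2, 0.04 without PT-G replicate 2, 0.08 when replicate 3 of MED-CTL was left out and 0.00098 without PT replicate 2. The fit that gave −0.25 had no term for the single dates, so an array left out was also missing from its date. The cause of these changes was not tested. Dim probes such as ITGB6 have no reliable level.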
